A study of Mus musculus with 17 samples.

Results

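The genes described here are 8 members of the AP-1 family of transcription factors, Fos, Fosb, Fosl1, Fosl2, Jun, Junb, Jund and Atf3, out of 48820 gene identifiers in the deposited count table. All 8 passed the filter on low counts, which 30405 genes passed. They were chosen by name and by a measured value, since most of them rank higher in Pelo -/- than in WT Lgr5 cells of this experiment, and since AP-1 genes are known to respond when tissue is dissociated. The difference between Pelo -/- and WT Lgr5 cells is therefore given as a description, without a test. Fosl1 does not share that direction, with a mean of 0.627 CPM (counts scaled to a common library size) in Pelo -/- Lgr5 cells and 1.01 in WT Lgr5 cells.

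The libraries are RNA-seq of epidermal cells of C57BL/6 mice aged 3 months, with 1000 cells positive for green fluorescent protein sorted per library and amplified by the full-length method of Picelli and colleagues. The mice carried EGFP-CreERT2 under control of the Lrig1, Lgr5 or Lgr6 locus, so the fluorescence that marks a population and the tamoxifen-inducible Cre come from the same allele, and only cells in which that locus is active are sorted. All mice, controls included, were treated with 4-OHT, the active form of tamoxifen. Mice labelled WT were Pelo fl/+, so they carried a floxed Pelo allele and Cre as well, and those labelled Pelo -/- were Pelo fl/fl. There were 3 libraries in each of the groups WT Lgr5, Pelo -/- Lgr5, WT Lgr6, Pelo -/- Lgr6 and Pelo -/- Lrig1, and 2 in WT Lrig1. The labels do not tell whether libraries of a group came from separate animals, so p-values measure only the spread between these samples, which may be technical.

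AP-1 is a dimer of basic leucine zipper proteins that binds DNA and switches on genes of growth, stress and wound repair. Fos proteins cannot pair with each other and need a Jun partner, whereas Jun proteins pair with each other, with Fos proteins or with ATF proteins such as Atf3. Growth factors, ultraviolet light, wounding and the detachment of cells from tissue raise Fos, Fosb, Jun, Junb and Atf3 within minutes through MAP kinases, and in epidermis AP-1 is known for its part in keratinocyte differentiation and in inflammation.

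Promoter sequences are shown for the 5 members that moved together between libraries of a group (Fos, Fosb, Jun, Junb and Atf3), as the 130 bases before the RefSeq start of each gene on GRCm38.p6, read 5′ to 3′ on the strand of the gene. These are chr12:85473760-85473889 for Fos (plus strand), chr7:19310046-19310175 for Fosb (minus strand), chr4:95052223-95052352 for Jun (minus strand), chr8:84978749-84978878 for Junb (minus strand) and chr1:191183334-191183463 for Atf3 (minus strand). Capitals mark TGACG, the core of the cyclic AMP response element, and in Jun the motif TGACATCA, a variant AP-1 site of 8 bases. In Atf3 the core lies on the opposite strand and so reads CGTCA.
Fos: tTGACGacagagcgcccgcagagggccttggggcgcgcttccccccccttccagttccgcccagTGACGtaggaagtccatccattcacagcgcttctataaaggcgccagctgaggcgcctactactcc
Fosb: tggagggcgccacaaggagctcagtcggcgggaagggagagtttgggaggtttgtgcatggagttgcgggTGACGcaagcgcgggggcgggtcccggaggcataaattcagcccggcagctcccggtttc
Jun: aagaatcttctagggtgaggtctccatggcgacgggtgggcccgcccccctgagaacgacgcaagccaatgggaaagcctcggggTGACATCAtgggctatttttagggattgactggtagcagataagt
Junb: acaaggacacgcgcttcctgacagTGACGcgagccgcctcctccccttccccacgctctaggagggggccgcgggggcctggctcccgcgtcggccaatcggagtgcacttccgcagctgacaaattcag
Atf3: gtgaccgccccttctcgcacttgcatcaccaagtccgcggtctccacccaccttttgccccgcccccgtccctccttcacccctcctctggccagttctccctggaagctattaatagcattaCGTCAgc

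Of the 8 members 7 had a RefSeq promoter window of 300 bases, reaching 250 bases before and 50 after the start, and these windows were searched on both strands. The motif TGACG was found in Fos (starting 129 and 66 bases before the start), Fosb (60 bases), Junb (106 bases) and Atf3 (7 bases), that is in 4 of 7 windows, and 20.8% of 32851 promoters of this length held it. TGACATCA was found in Jun only among the 7 (45 bases before the start) and in 3.62% of all promoters. Neither the AP-1 site TGANTCA, held by 7.81% of promoters, nor the full response element TGACGTCA, held by 1.79% and containing TGACG, was present in any of the 7 windows. No letters of the 4 motifs were found in the windows of Fosl2 and Jund. The RefSeq start used for Atf3 lies 34706 bases inside the gene as annotated by GENCODE, and that of Jund 1210 bases upstream of it. The start used for Fosl2 lies 671 bases inside the GENCODE gene.

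Libraries held 9647507 to 28098841 counts, with 9647507 to 17219054 in the 6 Lgr5 libraries. Lgr5 was at 276 to 570 CPM in Lgr5 libraries and at 0.0531 to 29.4 in the other 11, while Lgr6 (17.7 to 108 against 58.3 to 197) and Lrig1 (10.1 to 18.1 against 7.42 to 60.0) overlapped. Pelo overlapped between the genotypes in all 3 populations, with 5.90 to 17.4 CPM in WT and 11.8 to 23.6 in Pelo -/- Lgr5 libraries. In Lgr6 cells it was at 2.02 to 5.39 in WT and 3.10 to 4.94 in Pelo -/- libraries. In Lrig1 cells it was at 6.05 and 3.72 in WT and 3.82, 0.483 and 0.857 in Pelo -/- libraries, so only Pelo -/- replicate 1 overlapped. Lrig1 in these Pelo -/- libraries was at 37.7, 7.42 and 11.6 CPM. Because the deleted exons are not given, Pelo checks no label. The predicted gene Gm10800 took 1.12% to 16.6% of the counts in Lgr5 libraries and 0.149% to 1.83% in the others, and the TMM scaling factors were 0.990 to 1.91 and 0.688 to 0.964. WT Lgr5 replicate 3 stood apart, with the highest share of Gm10800 and the lowest share of mitochondrial counts, 3.69%. Scaled by TMM, the median of all 30405 genes lay 0.64 (log2) above 0 for Lgr5 against Lgr6 and 0.94 above 0 for Lgr5 against Lrig1. With genes of a mean CPM of at least 5 it was 0.04 and 0.05, so that alternative is given beside the members' fold changes between populations that it alters.

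Per kilobase of exon, Fos was the highest member in every library, with a median of 1221 CPM per kilobase over 17 libraries (209.9 to 2349). Atf3 followed with a median of 175 (12.1 to 371), Jun with 78.4 (21.0 to 188) and Fosb with 53.5 (2.36 to 116). The other members were lower, with medians of 27.3 for Jund, 17.7 for Fosl2, 14.4 for Junb and 5.25 for Fosl1. Summed over each family, Fos genes exceeded Jun genes 4.18-fold to 12.8-fold per kilobase. The 8 members took 0.138% to 0.709% of all counts in Lgr5 libraries, 0.116% to 0.527% in Lgr6 libraries and 0.238% to 0.436% in Lrig1 libraries, ranges that overlap.

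**Figure D1:**
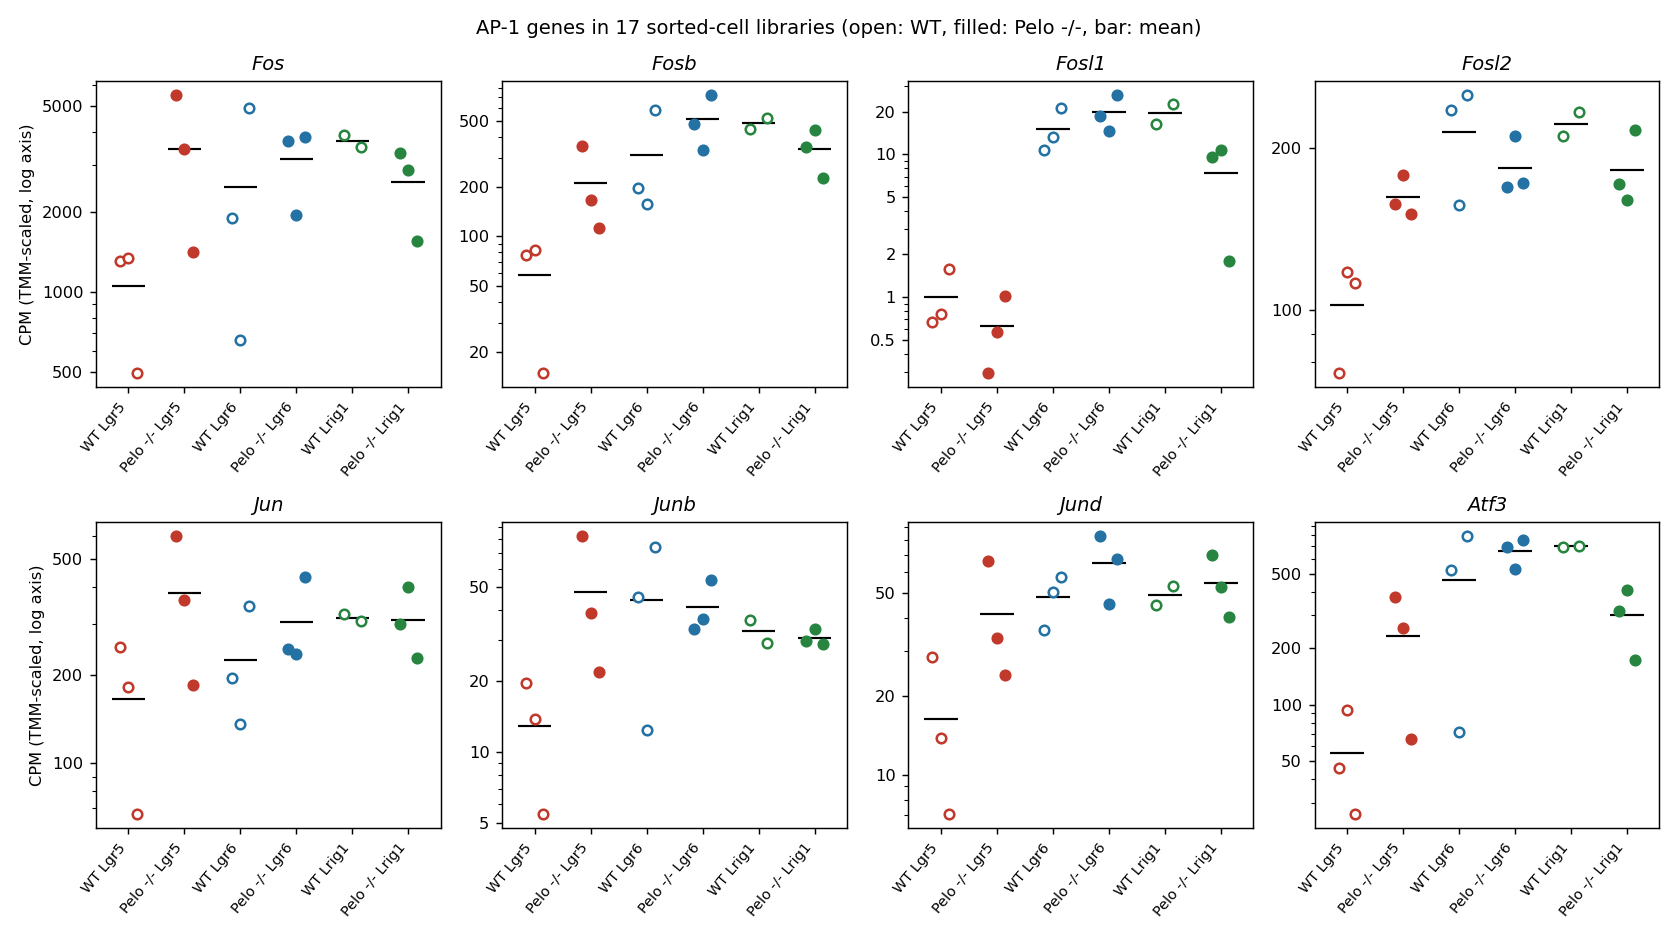
Each panel plots 1 AP-1 gene as CPM scaled by TMM on a log axis, with a point per library (open for WT, filled for Pelo -/-) and a bar at the group mean for the 6 groups of sorted cells. Fosl1 lies at 0.293 to 1.59 CPM in Lgr5 libraries and at 1.79 to 26.1 in the others, while for Fos and Jun the Lgr5 libraries overlap those of the other populations.

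Between populations, 5 of the 8 members were lower in Lgr5 than in Lgr6 cells and in Lgr5 than in Lrig1 cells, with the genotypes averaged (edgeR quasi-likelihood test, Benjamini-Hochberg adjusted p under 0.05 over 30405 genes). These were Fosl1, Fosb and Fosl2 of the Fos family, Jund of the Jun family, and Atf3. Fos, Jun and Junb did not pass the test in either comparison. Of all genes tested, 15.3% were called lower and 7.88% higher in Lgr5 than in Lgr6 cells, and 14.0% lower and 11.9% higher in Lgr5 than in Lrig1 cells. The median log2 fold change of the 8 members was -0.94 and -0.84, beside the medians of all genes of 0.64 and 0.94. For genes with a mean CPM of at least 5 the members' medians were nearer 0, at -0.28 and -0.22. The medians of all genes at that setting are given above. Both comparisons use the same 6 Lgr5 libraries, so they are not independent of each other. The choice of members used the difference between the Lgr5 genotypes, and these comparisons use their average. In these bulk libraries, fewer cells with a transcript and less transcript per cell cannot be told apart.

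Only the calls of Fosl1, Fosb and Atf3 were kept under all 24 alternatives in both comparisons. Jund was called under 17 of 24 against Lgr6 and 13 of 24 against Lrig1, and Fosl2 under 3 and 5 of 24. With RLE size factors, with genes of a mean CPM of at least 5 and with DESeq2, 3 members were called in each comparison. Under RLE size factors the median of all genes was 0.98 and 1.18, and the genes called turned from mostly lower to mostly higher, 4792 higher and 3765 lower against Lgr6 in place of 2396 and 4666. Against Lrig1 they numbered 6041 higher and 3682 lower in place of 3605 and 4255. Without WT Lgr5 replicate 3, against Lgr6, Jund (log2 fold change -0.90, edgeR adjusted p = 0.0612) and Fosl2 (-0.64, adjusted p = 0.0701) were no longer called.

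**Figure D2:**
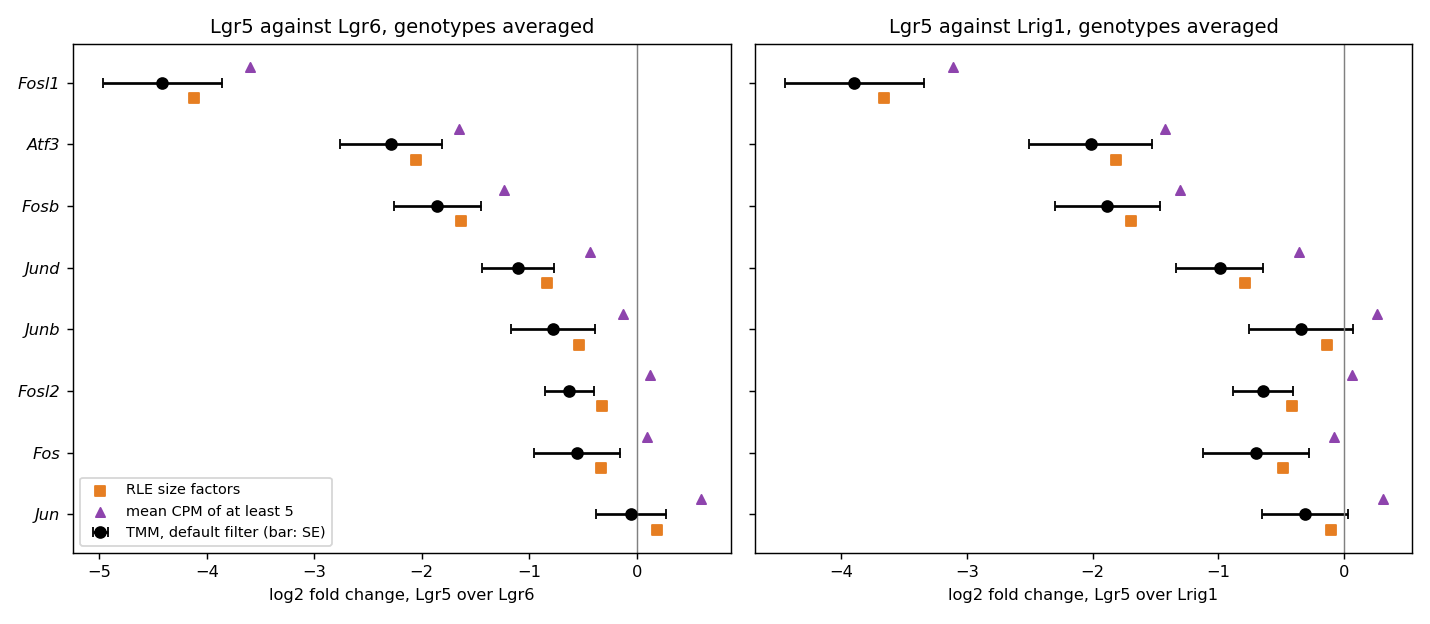
Log2 fold changes of the 8 AP-1 genes in Lgr5 over Lgr6 cells (left) and over Lrig1 cells (right), with circles for the TMM-scaled edgeR fit and its SE, squares for RLE size factors and triangles for genes with a mean CPM of at least 5. Fosl1, Atf3 and Fosb stay below 0 at every setting shown, whereas the triangles of Jun lie above 0 at 0.60 and 0.31.

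Among the Fos genes, Fosl1 differed most. Fosl1 encodes Fra-1, a Fos protein that lacks the strong activation domain of Fos and is induced later than Fos. It lies at chr19:5447547-5455946 (plus strand, GRCm38). In Lgr5 cells it was at 0.676, 0.769 and 1.59 CPM in WT and 0.293, 0.567 and 1.02 CPM in Pelo -/- libraries, which are 10, 12 and 29 and 5, 8 and 19 counts. In Lgr6 cells it was at 10.7, 13.3 and 21.1 CPM in WT and 18.5, 14.6 and 26.1 in Pelo -/- libraries, and in Lrig1 cells at 16.4 and 22.7 in WT and 9.54, 10.8 and 1.79 in Pelo -/- libraries. All 6 Lgr5 libraries lay below the other 11, narrowly so against Pelo -/- Lrig1 replicate 3 with its 23 counts. Fosl1 was 21.3-fold lower in Lgr5 than in Lgr6 cells (log2 fold change -4.42 ± 0.55 SE, edgeR adjusted p = 1.2e-06, n = 6 and 6) and 14.9-fold lower than in Lrig1 cells (-3.90 ± 0.55, adjusted p = 9.2e-06, n = 6 and 5). For genes with a mean CPM of at least 5 the log2 values were -3.60 and -3.11, both still called. It was the one member with every Lgr5 library below every other library, an order found for 7.54% of all genes. Of its 2033 exon bases 1163 overlap Ccdc85b on the opposite strand, which was at 0.0641 to 7.16 CPM in Lgr5, 1.11 to 4.59 in Lgr6 and 0.0603 to 4.14 in Lrig1 libraries, and no source used here tells whether strand was counted.

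Fosb, a close relative of Fos that is induced with it, lies at chr7:19302696-19310051 (minus strand). Its CPM was 77.3, 82.2 and 14.8 in WT and 352, 166 and 113 in Pelo -/- Lgr5 libraries. It was 198, 158 and 581 in WT and 483, 334 and 722 in Pelo -/- Lgr6 libraries, and 449 and 526 in WT and 349, 445 and 227 in Pelo -/- Lrig1 libraries. The WT Lgr5 libraries were lowest, and the Pelo -/- Lgr5 libraries overlapped the lower end of the other populations. Averaged over genotypes, Fosb was at 134 ± 118 CPM (SD, n = 6) in Lgr5, 413 ± 222 (n = 6) in Lgr6 and 399 ± 115 (n = 5) in Lrig1 cells. It was 3.62-fold lower than in Lgr6 cells (log2 -1.86 ± 0.41 SE, edgeR adjusted p = 0.00162) and 3.69-fold lower than in Lrig1 cells (-1.88 ± 0.42, adjusted p = 0.00227). For genes with a mean CPM of at least 5 the log2 values were -1.24 and -1.30, both still called.

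Fosl2 encodes Fra-2, the other Fos protein without a strong activation domain, and lies at chr5:32135801-32157842 (plus strand). It varied least of the Fos genes, from 76.2 to 178 CPM in Lgr5, 157 to 251 in Lgr6 and 159.7 to 234 in Lrig1 libraries. Its means were 132 ± 37.0, 199 ± 38.8 and 198 ± 31.3 CPM. The calls were close to the threshold, 1.54-fold lower than in Lgr6 cells (log2 -0.63 ± 0.23, edgeR adjusted p = 0.0477) and 1.56-fold lower than in Lrig1 cells (-0.65 ± 0.24, adjusted p = 0.0487). With genes of a mean CPM of at least 5 the values turned to 0.13 and 0.06, and neither passed the test.

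Fos itself, at chr12:85473890-85477273 (plus strand), was at 1307, 1347 and 494 CPM in WT and 5524, 3469.5 and 1415 in Pelo -/- Lgr5 libraries. In Lgr6 cells it was at 1891, 656 and 4935 in WT and 3698, 1957 and 3843 in Pelo -/- libraries, and in Lrig1 cells at 3889 and 3513 in WT and 3335, 2872 and 1557 in Pelo -/- libraries. The highest library of all was a Pelo -/- Lgr5 library and the lowest a WT Lgr5 library, and the spread within WT Lgr6 alone covered most of the range. Fos did not pass the test in Lgr5 against Lgr6 (log2 -0.56 ± 0.40, edgeR adjusted p = 0.296) or against Lrig1 cells (-0.70 ± 0.42, adjusted p = 0.193), and against Lgr6 the value turned to 0.10 with genes of a mean CPM of at least 5. Without WT Lgr6 replicate 3 it was 0.04.

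Of the Jun genes, Jund was called lower in Lgr5 cells and Jun and Junb were not. Jund encodes JunD, the Jun protein that most cells hold without stimulation, and lies at chr8:70698949-70700616 (plus strand). It was at 28.3, 13.8 and 7.05 CPM in WT and 66.3, 33.6 and 24.3 in Pelo -/- Lgr5 libraries, and at 36.0 to 83.1 in Lgr6 and 40.5 to 70.3 in Lrig1 libraries. Only Pelo -/- Lgr5 replicate 1 lay inside the range of the other populations. Its mean was 28.9 ± 20.7 CPM in Lgr5, 56.8 ± 16.8 in Lgr6 and 52.3 ± 11.4 in Lrig1 cells. It was 2.15-fold lower than in Lgr6 (log2 -1.11 ± 0.33, edgeR adjusted p = 0.0171) and 1.99-fold lower than in Lrig1 cells (-0.99 ± 0.35, adjusted p = 0.0391). For genes with a mean CPM of at least 5 these were -0.44 (edgeR adjusted p = 0.231) and -0.36 (adjusted p = 0.370) and no longer called. RLE size factors and DESeq2 also ended both calls. Gm11175, which shares 877 of the 1668 exon bases of Jund, had no counts in any library.

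Jun, the main partner of Fos, lies at chr4:95049034-95052222 (minus strand). It was at 250.0, 181 and 67.0 CPM in WT and 600.0, 362 and 185 in Pelo -/- Lgr5 libraries. It was at 136 to 432 CPM in Lgr6 and 229.6 to 401 in Lrig1 libraries. Lgr5 libraries thus spanned a wider range than the other populations and enclosed it. The log2 fold change was -0.05 ± 0.32 against Lgr6 (edgeR adjusted p = 0.904) and -0.31 ± 0.34 against Lrig1 cells (adjusted p = 0.471), with opposite signs against Lgr6 under RLE size factors and DESeq2 (0.19 each) and in both comparisons for genes with a mean CPM of at least 5. Its antisense neighbour Junos, with 232 shared exon bases, was at 0.484 to 9.86 CPM over all libraries.

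Junb, a Jun protein known for restraining growth and inflammation in epidermis, lies at chr8:84974484-84978718 (minus strand). It was at 19.5, 13.8 and 5.47 CPM in WT and 82.7, 38.7 and 21.9 in Pelo -/- Lgr5 libraries, and at 12.4 to 74.0 in Lgr6 and 28.7 to 36.1 in Lrig1 libraries. All 3 WT Lgr5 libraries were below every Lrig1 library, and the Pelo -/- Lgr5 libraries lay on both sides of them. Against Lgr6 the log2 fold change was -0.78 ± 0.39 (edgeR adjusted p = 0.145) and against Lrig1 -0.34 ± 0.41 (adjusted p = 0.503), the latter 0.27 for genes with a mean CPM of at least 5. Without Pelo -/- Lgr5 replicate 1, Junb was called lower than in Lgr6 cells (-1.11, adjusted p = 0.0451). It shares 173 exon bases with Prdx2, a peroxiredoxin gene that was at 26.4 to 67.3 CPM in Lgr5 libraries and 168 to 370 in the others.

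Atf3, a member of the ATF branch that is induced by many stresses, lies at chr1:191170296-191218039 (minus strand). It was at 46.1, 94.2 and 26.1 CPM in WT and 377, 256 and 65.5 in Pelo -/- Lgr5 libraries. In Lgr6 cells it was at 523, 71.9 and 798 in WT and 695, 531 and 757 in Pelo -/- libraries, and in Lrig1 cells at 698 and 707 in WT and 316, 409.7 and 174 in Pelo -/- libraries. Leaving aside WT Lgr6 replicate 2, which is as low as the Lgr5 libraries, only Pelo -/- Lgr5 replicates 1 and 2 reached the levels of the other populations. Atf3 was 4.87-fold lower in Lgr5 than in Lgr6 cells (log2 -2.29 ± 0.48, edgeR adjusted p = 0.00126) and 4.04-fold lower than in Lrig1 cells (-2.01 ± 0.49, adjusted p = 0.00514). With the filter at a mean CPM of 5 the log2 values were -1.65 and -1.42, both still called.

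Ratios between members within a library do not depend on how libraries are scaled. The log2 ratio of Fosb to Jun counts was -2.18 to -0.72 in the 6 Lgr5 libraries and -0.02 to 0.98 in the other 11, so the populations did not overlap. That of Atf3 to Jun was -2.44 to -0.50 and -0.92 to 1.50, with WT Lgr6 replicate 2 at -0.92. For Fosl1 the ratios were -10.86 to -5.38 and -6.97 to -3.35. Fos to Jun, by contrast, covered 2.39 to 3.26 in Lgr5 libraries and 2.27 to 3.91 in the others, and Fosl2 (-1.93 to 0.74 and -1.33 to 0.27) and Junb (-3.71 to -2.86 and -3.59 to -2.10) also overlapped. Jund to Jun met without a gap at -2.93. As a share of the 8 members per kilobase, Fos made up 79.2% to 82.4% in Lgr5 libraries and 63.6% to 79.1% in the others. Atf3 made up 3.05% to 6.64% against 7.61% to 20.0%, and Fosb 0.894% to 2.41% against 2.61% to 5.76%, both without overlap. How many of all genes would separate Lgr5 from the other libraries in such ratios was not counted.

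**Figure D3:**
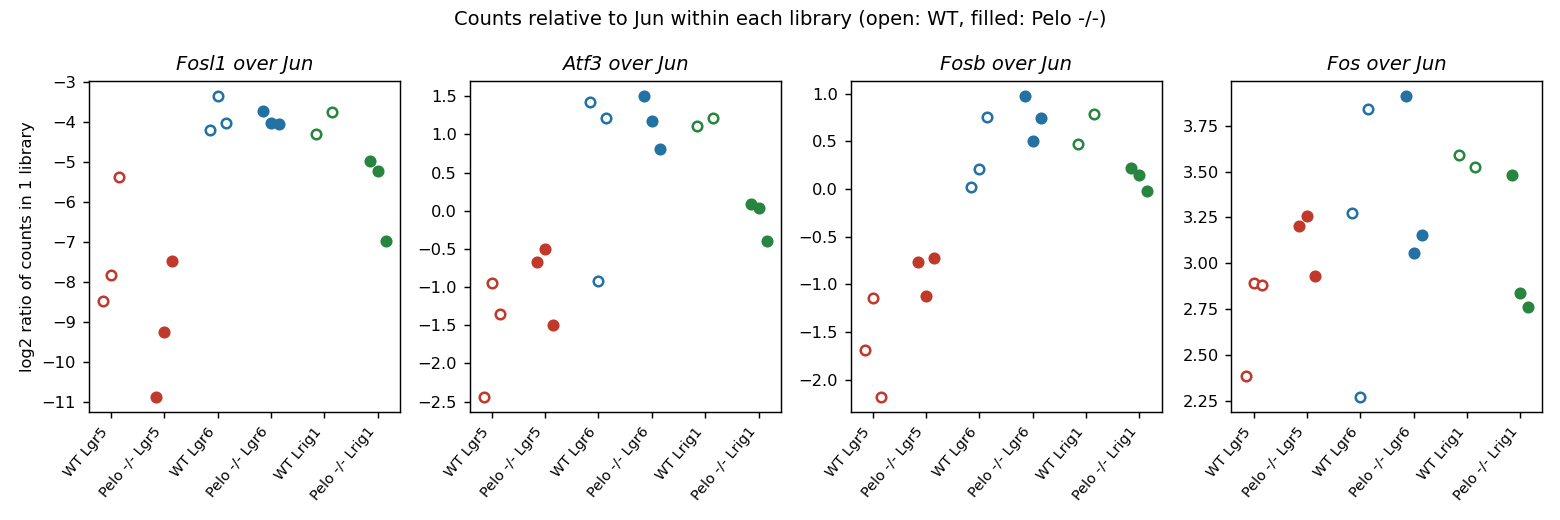
Log2 ratio of the counts of Fosl1, Atf3, Fosb and Fos to those of Jun in each of 17 libraries, with open points for WT and filled points for Pelo -/-. The Fosb panel shows all Lgr5 libraries at -0.72 or lower and all others at -0.02 or higher, and in the Fos panel the range of Lgr5 libraries (2.39 to 3.26) overlaps that of the others (2.27 to 3.91).

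Between Lgr6 and Lrig1 cells no member passed the test, and 0.0% of all genes were called (edgeR, 1731 of 30405 at an unadjusted p under 0.05). DESeq2 called 70 genes higher and 34 lower, limma-voom 4 and 3, and none of them was a member. The log2 fold changes of the members lay between -0.25 ± 0.34 for Jun and 0.52 ± 0.51 for Fosl1 (edgeR adjusted p of 0.974 for Fosl1). Among the 6 groups, WT Lgr5 had the lowest mean of Fos, Fosb, Fosl2, Jun, Junb, Jund and Atf3, and Pelo -/- Lgr5 the lowest mean of Fosl1. Groups next to each other in that order mostly overlapped, in 5 of 5 neighbouring pairs for Fos, Jun, Jund and Atf3, in 4 for Fosl1, Fosl2 and Junb, and in 3 for Fosb.

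Other basic leucine zipper genes of the AP-1 superfamily did not share 1 direction. Of 18 tested, 5 were higher and 6 lower in Lgr5 than in Lgr6 cells (median log2 fold change 0.64, equal to the 0.64 of all genes), and 2 were higher and 3 lower than in Lrig1 cells (median 0.29 against 0.94). Of the 11 with a mean CPM of at least 5, 4 were higher and 2 lower against Lgr6 and 4 higher and 1 lower against Lrig1. Their medians were -0.17 and 0.45. Shares of all genes in the main fit stand beside the counts of this and the following lists. Against Lgr6 cells 15.3% were called lower and 7.88% higher, and against Lrig1 cells 14.0% and 11.9%. Bach2, a repressor that competes for AP-1 sites, was at 40.4 ± 31.3 CPM in Lgr5 and 8.81 ± 5.84 in Lgr6 cells (log2 2.15 ± 0.55, edgeR adjusted p = 0.00538). Jdp2, a Jun dimerization protein that represses AP-1, was higher as well (3.10 ± 0.76, adjusted p = 0.00381) but at only 3.05 ± 1.87 CPM. Lower in Lgr5 cells were Atf7, an ATF protein that pairs with Jun proteins, at 31.5 ± 16.0 against 81.6 ± 16.9 CPM in Lgr6 cells (-1.45 ± 0.30, adjusted p = 0.00061), and Nfe2l2, the regulator of the oxidative stress response (-1.08 ± 0.28). Against Lrig1 cells these were 3.31 ± 0.64 for Bach2, 3.44 ± 0.88 for Jdp2, -1.23 ± 0.31 for Atf7 and -1.11 ± 0.29 for Nfe2l2, all called.

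Genes upstream of AP-1, MAP kinases and the serum response factor group, included 28 tested. None was higher and 7 were lower in Lgr5 than in Lgr6 cells (median -0.51), and 1 was higher and 7 were lower than in Lrig1 cells (median -0.42). For genes with a mean CPM of at least 5 these counts were 2 higher and 4 lower, and 5 higher and 3 lower, of 24. The medians then turned sign, to 0.13 and 0.096. Mapk13, the p38 delta kinase of keratinocytes, was at 8.29 ± 3.37 CPM in Lgr5, 55.0 ± 16.9 in Lgr6 and 37.6 ± 7.80 in Lrig1 cells (log2 -2.78 ± 0.32 and -2.26 ± 0.33, edgeR adjusted p = 4.4e-07 and 1.2e-05). Map2k3, a kinase that activates p38 (-1.83 ± 0.30 and -1.10 ± 0.30), and Rps6ka1, an effector kinase of ERK (-2.06 ± 0.37 and -2.08 ± 0.38), were lower in both comparisons.

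Other immediate early genes, 36 of them tested, were called lower in 20 and higher in 2 against Lgr6 cells (median -1.47), and lower in 17 and higher in 3 against Lrig1 cells (median -0.84). The medians stayed below 0 under RLE size factors, a mean CPM of at least 5, DESeq2 and limma-voom. Of these, Zfp36, which destabilizes cytokine messenger RNA, was at 120.0 ± 89.0 CPM in Lgr5 and 555 ± 213 in Lgr6 cells (log2 -2.36 ± 0.33, edgeR adjusted p = 5.7e-06). Ppp1r15a, which restarts translation after stress, differed by -3.51 ± 0.44, and Nfkbiz, a nuclear partner of NF-kappa-B, by -2.36 ± 0.30. The genes higher in Lgr5 cells were Ccn2, a matrix protein, at 897 ± 359 against 70.3 ± 17.1 CPM (3.62 ± 0.29, adjusted p = 1.2e-09), and Cebpd (2.45 ± 0.44).

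Of 13 heat shock genes that belong to signatures of dissociated tissue, 5 were lower and 1 higher in each comparison (medians -0.73 and -0.60). With genes of a mean CPM of at least 5 they were 4 lower and 3 higher against Lgr6, and 3 in each direction against Lrig1 (medians -0.10 and 0.0066). Hsp90ab1, a cytosolic chaperone, was at 239 ± 117 CPM in Lgr5 and 2098 ± 472 in Lgr6 cells (log2 -3.15 ± 0.32), while Hspa1b, the inducible Hsp70, was at 519 ± 199 against 163 ± 40.0 (1.62 ± 0.25). Hspa1b shares nearly all of its sequence with Hspa1a, so how reads were divided between them is uncertain. The summed CPM of the immediate early list was 2988 to 8101 in Lgr5, 4169 to 11923 in Lgr6 and 6772 to 10789 in Lrig1 libraries. That of the heat shock list was 1067 to 3615, 4291 to 5408 and 3429 to 4437. The part of dissociation in the differences of the AP-1 members was not tested.

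Known AP-1 targets of keratinocytes were called lower in 8 of 31 and higher in 1 against Lgr6 cells (median -0.66), and lower in 7 and higher in 1 against Lrig1 cells (median 0.16). Of all genes, 15.3% were called lower and 7.88% higher against Lgr6 cells, and 14.0% and 11.9% against Lrig1 cells. The median turned to 0.07 against Lgr6 with limma-voom, and to -0.53 against Lrig1 for the 11 targets with a mean CPM of at least 5. Serpinb2, a protease inhibitor of stressed keratinocytes, was at 12.3 ± 8.54 CPM in Lgr5, 1865 ± 964 in Lgr6 and 1781 ± 191 in Lrig1 cells (log2 -7.28 ± 0.59 and -7.22 ± 0.60, edgeR adjusted p = 1.9e-08 and 3.0e-08). Krt16, a keratin of wounds, was at 1.29 ± 1.26 CPM in Lgr5, 141 ± 134 in Lgr6 and 31.3 ± 19.8 in Lrig1 cells (-6.85 ± 0.81 and -4.74 ± 0.75). Hbegf, a growth factor of wound closure, was also lower in both (-3.38 ± 0.46 and -2.31 ± 0.46). Beside these, most of the list did not pass the test.

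Markers of cell types differed between the populations too. The summed CPM of 8 keratinocyte markers was 4765 to 12733 in Lgr5, 17440 to 29165 in Lgr6 and 18456 to 27321 in Lrig1 libraries, and 6 of the 8 were called lower in each comparison (medians -1.09 and -0.98). With RLE size factors 4 of the 8 were called lower in each. With genes of a mean CPM of at least 5 it was also 4, with medians of -0.38 and -0.31. Melanocyte markers summed to 64.1 to 334 CPM in Lgr5, 12.7 to 39.5 in Lgr6 and 13.0 to 36.0 in Lrig1 libraries, with 5 of 8 called higher against Lgr6 and 6 of 8 against Lrig1. Fibroblast markers summed to 51.0 to 113, 4.57 to 39.8 and 7.06 to 18.0 CPM (4 and 6 of 8 higher). Langerhans cell and macrophage markers went the other way, with 4.04 to 15.2, 46.5 to 448 and 67.3 to 163 CPM (2 of 8 lower and 1 higher in each). Endothelial markers summed to 13.3 to 31.5, 4.20 to 14.4 and 3.38 to 9.95 CPM (none and 3 of 8 higher). T cell markers summed to 3.46 to 19.5, 20.4 to 68.2 and 15.2 to 38.9 CPM (1 of 7 in each direction). No defining marker was at 0 in a whole population. Within single groups, Mlana was at 0 in all libraries of Pelo -/- Lgr6 and WT Lrig1, Dcn and Lyz2 in WT Lrig1, and Lum in Pelo -/- Lrig1. Markers of the bulge, the stem cell niche of the follicle, summed to 4092 to 6321 CPM in Lgr5 libraries and 767 to 1371 in the others, with 7 of 8 called higher in each comparison. The part of cell composition in the AP-1 differences was not tested.

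Within groups, 5 members moved together. After the group mean was taken off, the log2 CPM of Fos, Fosb, Jun, Junb and Atf3 correlated with Pearson's r between 0.748 and 0.947 in all 10 pairs over 17 libraries, which share sorting, depth and scaling between the genes. Fosl1 (r of -0.22 to 0.06) and Fosl2 (-0.50 to 0.42) had lower values with every other member. Jund reached 0.780 with Fosb and 0.770 with Jun, inside the range of the 5, and had 0.645 with Fos, 0.583 with Junb and 0.401 with Atf3. Other genes were then compared with the mean of all 8 members, each scaled to unit SD, Fosl1, Fosl2 and Jund included. Among the genes most like that mean, out of 7789 genes whose mean log2 CPM reached 3, were Cd9 (r = 0.953), Map1lc3b (0.939), Dusp1 (0.938), Atp6v0e (0.936), H3f3b (0.931), Dpm2 (0.929) and Cyb5a (0.928). Dusp1, a phosphatase that switches off MAP kinases, is an immediate early gene, and 6 of the 29 immediate early genes in the comparison were among the top 100, with Ier2 at rank 11, Zfp36 at 20, Ccn1 at 21 and Egr1 at 36. Among the top 1000 of the 7789 genes were 16 of these 29 genes and 4 of the 13 heat shock genes. The median rank was 766 for the immediate early genes and 1589 for the heat shock genes, of which 0 were among the top 100.

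In Lgr5 cells, where the members were selected on the difference between genotypes, 7 of 8 had a higher value in Pelo -/- cells and the median log2 fold change was 1.53, beside -0.14 for all genes. The fold changes were 3.31-fold for Fos (log2 1.73 ± 0.58 SE, n = 3 and 3), 3.62-fold for Fosb, 3.69-fold for Junb, 4.20-fold for Atf3, 2.53-fold for Jund, 2.30-fold for Jun and 1.59-fold for Fosl2. Every Pelo -/- library lay above every WT library for Fos, Fosb, Fosl2 and Junb, and none of the members lay wholly below. All genes tested had the former order in 3.8% and the latter in 4.41% of cases, from which nothing is read for genes chosen on this contrast. The member with the smallest rise in this description, Fosl2, was at 76.2, 117 and 112 CPM in WT and 157, 178 and 150.5 in Pelo -/- libraries. Leaving out 1 library at a time moved the median of the members between 1.02 and 1.93.

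Some library properties differed between genotypes in Lgr5 cells. The sums of the immediate early, melanocyte and bulge lists did not overlap between genotypes. The share of Gm10800 and the sums of the heat shock and keratinocyte lists did overlap. WT Lgr5 libraries held 6.60%, 2.73% and 16.6% of counts in Gm10800 and Pelo -/- Lgr5 libraries 1.12%, 4.20% and 6.15%. WT Lgr5 replicate 3, the highest of these, was the lowest of all 17 libraries for Fos, Fosb, Jun, Junb, Jund and Atf3. Without it the log2 values were 1.42 for Fos, 1.43 for Fosb, 1.74 for Atf3 and 1.57 for Junb. The immediate early list summed to 2988 to 3238 CPM in WT and 4501 to 8101 in Pelo -/- Lgr5 libraries, and 34 of its 36 genes had a higher value in Pelo -/- cells (median 1.01). The heat shock list (1067 to 2591 and 1882 to 3615 CPM, 11 of 13 higher) and the melanocyte markers (64.1 to 134 and 148 to 334 CPM, 8 of 8 higher) moved the same way. So did the keratinocyte markers (4765 to 8100 and 7556 to 12733 CPM, 8 of 8 higher, median 0.47) and the bulge markers (4092 to 5557 and 6211 to 6321 CPM, 7 of 8 higher, median 0.45). Fibroblast markers (5 of 8 higher, median 0.38) and T cell markers (5 of 7, median 0.24) were mostly higher. Endothelial markers (1 of 8 higher, median -0.77) and Langerhans cell and macrophage markers (2 of 8, median -0.30) went mostly the other way. Of the AP-1 targets 13 of 31 had a higher value, with a median of -0.11. Beside these counts, 43.9% of all genes tested had a higher value in Pelo -/- Lgr5 cells, with a median of -0.14. The part of these properties in the values of the members was not tested.

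**Figure D4:**
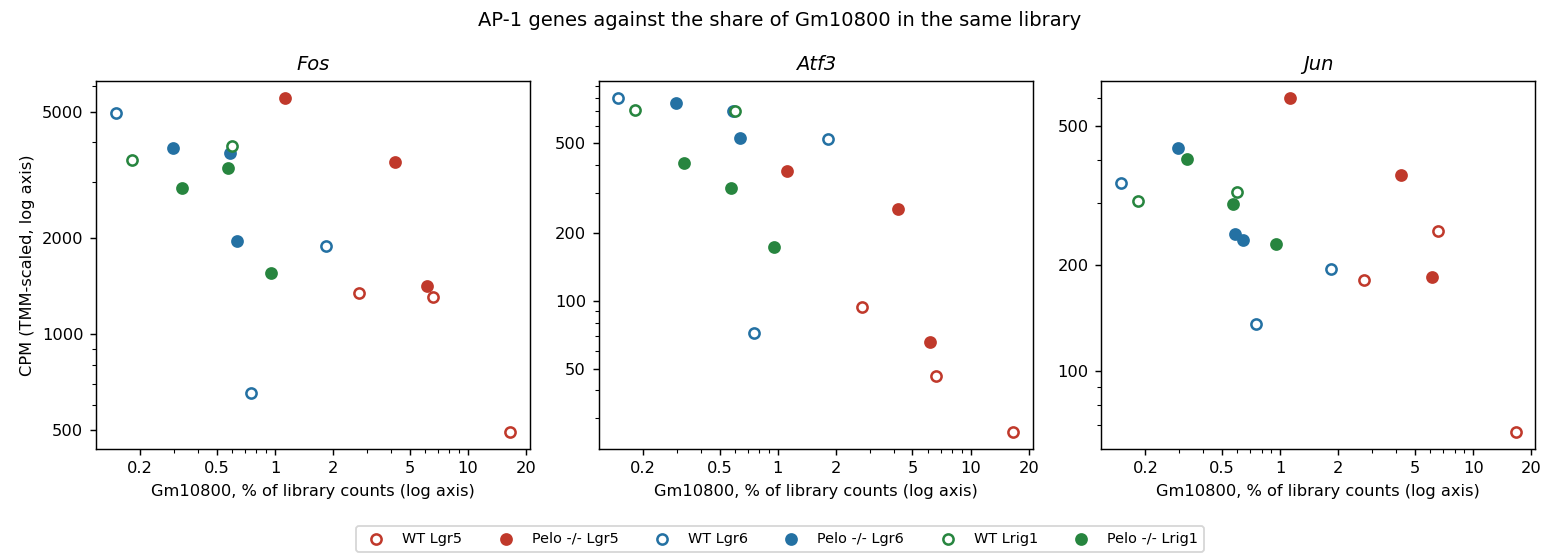
CPM of Fos, Atf3 and Jun against the share of counts in the predicted gene Gm10800, both on log axes, for 17 libraries (open for WT, filled for Pelo -/-, red for Lgr5, blue for Lgr6, green for Lrig1). WT Lgr5 replicate 3 sits at the far right with 16.6% of its counts in Gm10800 and with the lowest value of each of the 3 genes.

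In Lgr6 and Lrig1 cells, which did not enter the choice of members, no AP-1 gene passed the test between Pelo genotypes. In Lgr6 cells the log2 fold changes of Pelo -/- over WT were 0.72 ± 0.56 for Fosb, 0.51 ± 0.64 for Atf3, 0.44 ± 0.47 for Jund, 0.44 ± 0.46 for Jun, 0.39 ± 0.67 for Fosl1, 0.34 ± 0.57 for Fos, -0.10 ± 0.55 for Junb and -0.22 ± 0.32 for Fosl2 (SE, n = 3 and 3). Every gene overlapped between genotypes. No gene was called among all tested (0.0%, edgeR, with 1180 at an unadjusted p under 0.05, 3 higher and 15 lower by DESeq2 and none by limma-voom). All Pelo -/- libraries lay above all WT libraries for 2.5% of genes and below for 5.74%, and for no member.

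In Lrig1 cells the values pointed down, without passing the test. They were -1.40 ± 0.74 for Fosl1 (edgeR, unadjusted p = 0.0695), -1.23 ± 0.71 for Atf3 (unadjusted p = 0.0986), -0.52 ± 0.61 for Fosb, -0.52 ± 0.63 for Fos, -0.29 ± 0.36 for Fosl2, -0.09 ± 0.61 for Junb, -0.02 ± 0.51 for Jun and 0.15 ± 0.52 for Jund (SE, n = 3 and 2). All 3 Pelo -/- libraries lay below both WT libraries for Fos, Fosb, Fosl1 and Atf3, 4 of 8 members, an order that 10.7% of all genes had. For no member did they lie above, which 8.17% of all genes did. Again 0.0% of genes were called by edgeR (1106 at an unadjusted p under 0.05), 18 were called higher and 15 lower by DESeq2 and none by limma-voom, and no member was called by any of them.

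The difference between the effect in Lgr6 and that in Lrig1 cells was not called for any member, with 1.79 ± 1.00 for Fosl1 and 1.74 ± 0.96 for Atf3 as its largest values, nor for any other gene (0.0%, edgeR, 1278 at an unadjusted p under 0.05, 8 higher and 47 lower by DESeq2 and none by limma-voom). Beside these, the effect in Lgr5 cells exceeded that in Lrig1 cells by 3.30 for Atf3, 2.38 for Fosb, 2.24 for Fos, 1.98 for Junb, 1.22 for Jun, 1.19 for Jund, 0.95 for Fosl2 and 0.72 for Fosl1. It exceeded that in Lgr6 cells by 1.98 for Junb, 1.56 for Atf3, 1.38 for Fos and 1.14 for Fosb, and fell short of it by -1.08 for Fosl1. These last differences contain the contrast on which the members were chosen and were not tested.

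**Figure D5:**
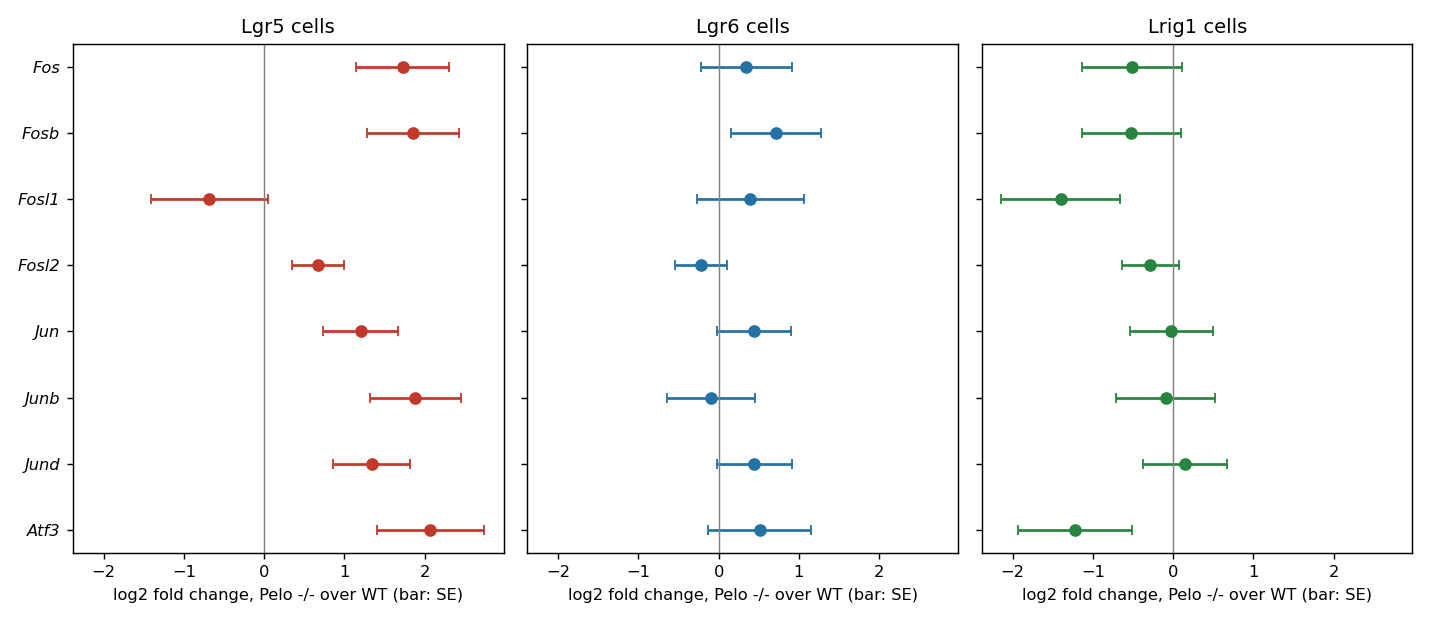
Log2 fold change of Pelo -/- over WT with its SE for the 8 AP-1 genes in Lgr5, Lgr6 and Lrig1 cells, on a common axis. In Lgr5 cells, where the genes were selected, 7 of 8 lie above 0, while in Lgr6 and Lrig1 cells no value passed the test.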

How the data were processed

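The authors deposited 1 table of raw counts, whole numbers for each gene in 17 libraries, and it was used unchanged. STAR, edgeR and the builds GRCm38 and mm10 are named, without versions, per the submitters' processing notes. Not given in the sources used here are the counting tool, its annotation and its use of strand. Of 48820 identifiers, 40606 matched the supplied GENCODE annotation (GRCm38) by versioned identifier and 48058 once versions were dropped. The 762 left over held 0.110% to 0.157% of the counts of a library. Samples were grouped by their titles. No pair of libraries was a copy (smallest chi-square per degree of freedom 38.5 over 136 pairs).

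All libraries entered an edgeR 4.0.16 quasi-likelihood fit (R 4.3.3, TMM, robust dispersions, common dispersion 0.537) with a coefficient per group. Genes were kept by filterByExpr (minimum count 10, minimum total 15). Calls rest on Benjamini-Hochberg adjustment over all genes of a comparison, with a threshold of 0.05. SE was taken as |log2 fold change| divided by the square root of the F statistic. Population comparisons average the genotypes. CPM values are TMM-scaled, with SD over libraries. Ratios to Jun used counts plus 0.5. The script was tested on simulated data. The members and lists were chosen with earlier results of these data known. Named list genes were up to 4 called genes per list with the smallest p in a direction, and for likeness the 8 genes with the highest correlation. A few genes reached by these rules are not reported here. Same-numbered replicates correlated at -0.0002 to 0.21 over 8 pairs, 4 of them over 0.1, and numbers were not taken as pairs in the main fit. In Lgr5 cells r was 0.21, -0.0002 and 0.20 for replicates 1, 2 and 3. From replicate 1 to 3, Jun, Junb, Jund and the share of mitochondrial counts fell and Fosl1 rose in both Lgr5 genotypes. Fos, Fosb, Fosl2 and Atf3 kept no such order shared by both genotypes. Whether replicate numbers mark a batch was not tested. Alternatives were 23 planned (RLE size factors, no filter, a mean CPM of at least 5, DESeq2 1.42.0, limma-voom 3.58.1, a replicate block, each library left out) and 1 chosen after seeing the data (WT Lgr5 replicate 3 and WT Lgr6 replicate 2 left out together). Promoter sequences are from RefSeq on GRCm38.p6.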

Additional observations from a re-analysis of the deposited data

Results flagged for a closer look

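For Fos and Fosb, the values of the Pelo -/- libraries lay above all WT libraries in Lgr5 cells and below both in Lrig1 cells. The log2 differences in Lrig1 cells, -0.52 ± 0.63 for Fos and -0.52 ± 0.61 for Fosb (SE, n = 3 and 2), did not pass the edgeR test, and the Lgr5 contrast is the one both genes were chosen on. Of all genes, 3.8% had the order seen in Lgr5 cells and 10.7% that seen in Lrig1 cells. The effects differed by 2.24 (log2) for Fos and 2.38 for Fosb, and this difference was not tested.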

How the results depend on the processing

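In each comparison of Lgr5 with another population, 5 members were called. The count was 3 with RLE size factors, with a mean CPM of at least 5 and with DESeq2, 4 without a filter, 5 with limma-voom, and 4 without WT Lgr5 replicate 3 and WT Lgr6 replicate 2 together. Under a replicate block it was 4, a setting that pairs samples by number alone, and all genes called went from 2396 to 1706 higher and from 3605 to 2259 higher. With 1 library left out the count ran from 3 to 5 in both. It reached 3 against Lgr6 without WT Lgr5 replicate 3, WT Lgr6 replicate 3 or Pelo -/- Lgr6 replicate 1. Against Lrig1 it reached 3 without either WT Lrig1 library, Pelo -/- Lrig1 replicate 1 or 2, or Pelo -/- Lgr5 replicate 2 or 3. The cause was not tested. In the other 4 tested comparisons it was 0 under all 24 alternatives. Over all genes, a mean CPM of at least 5 gave 2665 higher and 2600 lower against Lgr6 and 2329 and 2431 against Lrig1. DESeq2 gave 6849 and 4310, and 8372 and 4106, and limma-voom 3056 and 5271, and 4373 and 4839.

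Signs turned only in values that were not called, or, for Fosl2, close to the threshold. With a mean CPM of at least 5, Lgr5 against Lgr6 gave 0.10 for Fos, 0.13 for Fosl2 and 0.60 for Jun, and against Lrig1 0.060 for Fosl2, 0.31 for Jun and 0.27 for Junb. RLE size factors and DESeq2 gave 0.19 for Jun against Lgr6. Lgr6 against Lrig1 gave 0.020 for Fosb under the replicate block and -0.0081 for Atf3 with limma-voom. Pelo -/- against WT gave 0.24 for Junb in Lgr6 cells with limma-voom. For Jun in Lrig1 cells it gave 0.0080 with RLE size factors and DESeq2, 0.030 without a filter, 0.033 with a mean CPM of at least 5, and 0.049 under the block. Leaving out 1 library gave -0.82 to 0.041 for Fos and -0.30 to 0.28 for Jun in Lgr5 against Lgr6. In Lgr6 against Lrig1 it gave -0.74 to 0.086 for Fos, -0.57 to 0.13 for Fosb, -0.23 to 0.069 for Fosl2, -0.11 to 0.23 for Jund and -0.17 to 0.52 for Atf3. For Pelo -/- against WT it gave -0.10 to 1.52 for Fos, -0.40 to 0.10 for Fosl2 and -0.53 to 0.70 for Junb in Lgr6 cells, and -0.25 to 0.15 for Jun and -0.078 to 0.42 for Jund in Lrig1 cells. Of the values of single members under alternatives, with libraries left out only from the groups compared, 605 kept direction and side of the threshold, 44 lost the call without a turn of sign, 43 turned sign (called or not), 1 gained the call and 3 in Lgr5 cells moved by more than the spread between libraries. Fosl1 rests on 5 to 29 counts per Lgr5 library, which limits its fold change.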
